A study of Homo sapiens with 10 samples.

Results

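The baseline transcriptome of wild-type (WT) H9 human embryonic stem cells was described from the 5 libraries titled WT_1 to WT_5 (WT 1 to WT 5 here), out of 10 libraries in the series. H9, registered as WAe009-A, is an established line derived from the inner cell mass of a blastocyst. The cells carried no edit and received no agent, and they grew on Matrigel in TeSR-E8 medium. The other 5 libraries, titled 57-KO_1 to 57-KO_5 and given as a knockdown in the genotype label, are KCNH2-/- cells in another medium, and they were not used here. All 5 libraries come from a single line, and the labels do not say whether they came from separate cultures, so the spread between them may be technical. PolyA RNA was sequenced, so transcripts without a polyA tail are measured poorly.

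Embryonic stem cells in this kind of culture resemble the epiblast shortly before gastrulation, a condition called primed pluripotency. A small circuit of transcription factors around POU5F1 (also called OCT4), SOX2 and NANOG holds them undifferentiated, together with signals from fibroblast growth factor (FGF) and the TGF-beta, activin and NODAL family. TeSR-E8 is a defined medium that supplies FGF2, TGF-beta, insulin, transferrin, selenium and ascorbate in a basal medium, without serum or albumin. Matrigel, a basement membrane extract rich in laminin and collagen IV, gives the cells a surface to attach to.

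The microRNAs of the miR-302/367 cluster are among the best-known noncoding products of human pluripotent cells. Their host transcript was the lncRNA highest per kilobase on the mean of these libraries, though not in WT 2 and WT 3. The mature sequences from RefSeq (GRCh38.p14) are shown here, 5′ to 3′, with the seed (bases 2 to 8) in capitals, because the seed is what groups them by target.
hsa-miR-302a-3p: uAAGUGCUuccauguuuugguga
hsa-miR-302b-3p: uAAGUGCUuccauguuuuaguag
hsa-miR-302c-3p: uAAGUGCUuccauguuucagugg
hsa-miR-302d-3p: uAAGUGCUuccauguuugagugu
hsa-miR-367-3p: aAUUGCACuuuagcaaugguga
The 4 miR-302 members share the seed AAGUGCU and differ only towards the 3′ end, whereas miR-367 carries the seed AUUGCAC. All lie on the minus strand of chromosome 4, from hsa-miR-367-3p at chr4:112647877-112647898 to hsa-miR-302b-3p at chr4:112648489-112648511. They sit within the host gene AC106864.1 (MIR302CHG, ENSG00000249532), which GENCODE 29 places at chr4:112646476-112650051. The libraries measured the polyA host transcript, not the mature microRNAs. Its level was 259 CPM (a gene's count divided by the library's total count and multiplied by 1e+06) in WT 1, 223 in WT 2, 205 in WT 3, 270 in WT 4 and 239 in WT 5. WT 1 and WT 4 were highest, and WT 3 and WT 2 were lowest. The coefficient of variation (CV, the SD as a percentage of the mean) was 11.0%, against 1.06% from counting error alone. The host gene overlaps LARP7 on the opposite strand (68.0 CPM on average), and without a stated strand setting the reads of both cannot be told apart.

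The totals of the libraries were 38656986 counts in WT 1, 47319933 in WT 2, 43854865 in WT 3, 33977991 in WT 4 and 28615751 in WT 5. The limit set by a count of 0, taken as 3 counts, was between 0.0634 and 0.105 CPM depending on the library. Such limits hold for a single library and cover counting error only. A mean over the 5 libraries can lie below them although counts were seen. WT 2 and WT 3 stood apart from the rest: the counts on processed pseudogenes, which are reinserted copies of spliced mRNAs, were 1.24% of the total in WT 1, 0.667% in WT 2, 0.490% in WT 3, 1.35% in WT 4 and 1.20% in WT 5. WT 2 and WT 3 were also the deepest libraries, and the part of depth in this difference was not tested. In a principal component analysis of genes with a mean of at least 1 CPM, component 1 took 75.4% of the variance. Its scores were 16.0 and 35.7 for WT 2 and WT 3 and from −21.7 to −14.5 for the others. Genes with near-identical copies elsewhere in the genome are treated as uncertain throughout, and the pattern is described after the levels.

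Of 32152 genes in the table, 15177 (47.2%) reached at least 1 CPM in all 5 libraries. Among the 17691 protein-coding genes the number was 13253 (74.9%). A total of 10582 genes had a mean of at least 10 CPM, 2136 reached 100 CPM and 80 reached 1000 CPM, while 780 had no count in any WT library. Protein-coding genes took 96.5% ± 0.410 of the counts (SD, n = 5), mitochondrially encoded genes 4.15% ± 0.365 and the 79 cytosolic ribosomal protein genes 7.90% ± 0.186. The 100 most counted genes held 19.4% ± 0.338 of all counts, and the 1000 most counted held 50.1% ± 0.191.

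The gene with the most counts was EEF1A1, the elongation factor that brings aminoacyl-tRNA to the ribosome, at 15158 ± 265 CPM (SD, n = 5). Next came the mitochondrially encoded cytochrome oxidase subunits MT-CO1 at 10755 ± 891 CPM and MT-CO3 at 5100 ± 612 CPM, and the mitochondrial 16S rRNA MT-RNR2 at 4997 ± 502 CPM. The other genes among the 15 with most counts were the actins ACTB and ACTG1, the elongation factor EEF2, the chaperone HSP90AB1, the splicing regulator HNRNPA1, the ribosomal proteins RPL3 and RPS2, and MT-ND4, MT-CO2 and MT-ATP6. The last of the 15 was POU5F1, the only transcription factor among them. The mitochondrial genes varied more between libraries than the nuclear ones in this group: the CV was 8.29% for MT-CO1, 12.01% for MT-CO3 and 10.7% for MT-ATP6, but 1.75% for EEF1A1, 2.70% for ACTB and 2.25% for POU5F1. WT 1 had the highest mitochondrial share, 4.78%, and the other 4 libraries lay between 3.86% and 4.16%.

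Because a longer transcript yields more fragments, levels of different genes were compared as CPM per kilobase of 1 transcript per gene. On that scale the 15 highest nuclear protein-coding genes were EEF1A1, ACTB, PTMA, POU5F1 and 11 ribosomal protein genes. EEF1A1 stood at 3413 ± 59.7 CPM per kilobase, and the highest ribosomal protein genes were RPS2 at 3013 ± 44.8, RPS18 at 2509 ± 90.2, RPL3 at 2191 ± 26.7 and RPL7A at 2122 ± 69.8. RPL13A, RPL8, RPLP0, RPL41 and RPL7 were also among them. PTMA, which encodes the chromatin-associated protein prothymosin alpha, had 1737 ± 39.4 CPM per kilobase. POU5F1, at 1885 ± 42.3 CPM per kilobase, lay just below RPL8 (1912 ± 47.6), and these levels did not differ beyond their SD. It ranked number 16 of 17691 protein-coding genes, or number 21 when the length was the union of all exons.

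**Figure D1:**
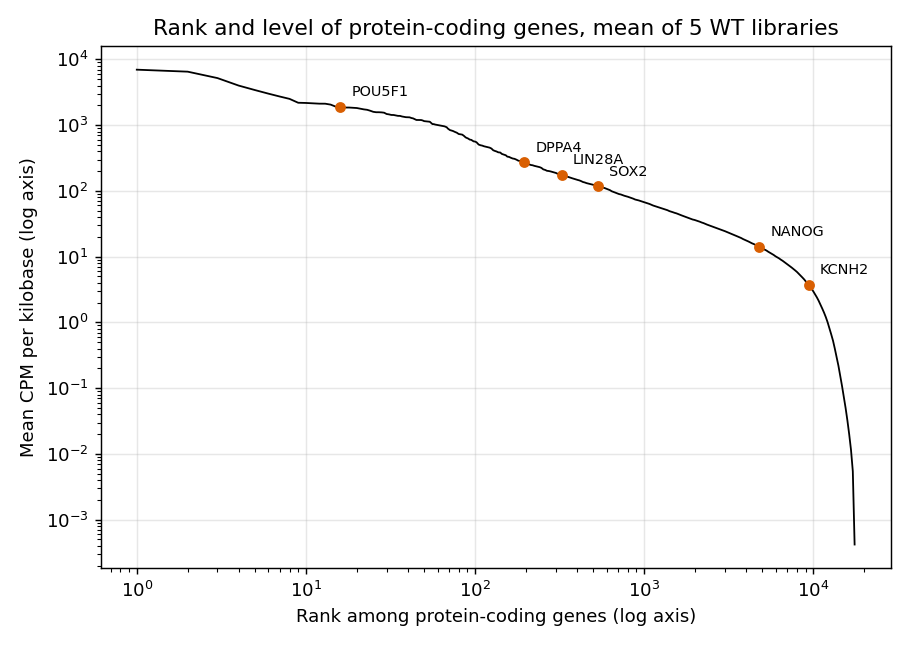
Mean level of each protein-coding gene in CPM per kilobase (y axis, log) against its rank (x axis, log), over the 5 WT libraries, with the 5 pluripotency markers and KCNH2 as points. POU5F1 sits on the upper plateau at rank 16, while NANOG and KCNH2 sit past the bend at ranks 4797 and 9403.

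POU5F1 (ENSG00000204531, chr6:31164337-31180731, minus strand) encodes the POU-domain factor at the centre of the pluripotency circuit. Its level was 2623 CPM in WT 1, 2670 in WT 2, 2746 in WT 3, 2730 in WT 4 and 2615 in WT 5. The CV was 2.25%, and WT 2 and WT 3 did not stand apart, with WT 4 between them. The 3 processed pseudogenes named after POU5F1 did show the split, with a summed level of 131 CPM in WT 1, 52.7 in WT 2, 31.1 in WT 3, 154 in WT 4 and 127 in WT 5. They held 3.57% of the counts of the parent and pseudogenes together, and the CV of that sum was 2.30%.

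SOX2 (ENSG00000181449, chr3:181711924-181714436, plus strand), the HMG-box partner of POU5F1 on DNA, was at 282, 298, 301, 306 and 281 CPM in WT 1 to WT 5. WT 1 and WT 5 were lowest. NANOG (ENSG00000111704, chr12:7787794-7799141, plus strand), the homeodomain factor that stabilises the undifferentiated state, was at 74.9, 74.1, 75.0, 67.2 and 75.6 CPM. WT 4 lay below the other 4, which were close together. NANOG has a retrogene copy, NANOGP8, with a mean of 27.5 CPM and a CV of 7.59%, and reads can be shared between them.

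LIN28A (ENSG00000131914, chr1:26410778-26429722, plus strand) encodes an RNA-binding protein that blocks the maturation of let-7 microRNAs. It was at 659, 693, 717, 672 and 770 CPM in WT 1 to WT 5, with WT 5 highest and a CV of 6.21%, the widest of the 5 markers. DPPA4 (ENSG00000121570, chr3:109326141-109337572, minus strand), a nuclear protein typical of pluripotent cells, was at 753, 778, 779, 760 and 753 CPM. Its libraries lay close together, with a CV of 1.73%.

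Per kilobase the order of the 5 markers was POU5F1 at 1885 ± 42.3, DPPA4 at 271 ± 4.69 (rank 196), LIN28A at 175 ± 10.9 (rank 327), SOX2 at 117 ± 4.61 (rank 531) and NANOG at 14.2 ± 0.677 (rank 4797; SD, n = 5 for each). No neighbours in this order overlapped between libraries. The order of DPPA4 and LIN28A depended on the length chosen: with the union of exons LIN28A stood at 175 CPM per kilobase and DPPA4 at 153. NANOG stood lower per kilobase than in CPM, where it ranked number 3021, because the transcript used for it is 5183 bases long. All 5 markers were present in every library, so the label of undifferentiated stem cells was not contradicted.

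All 40 genes of a list of core pluripotency genes reached 1 CPM in all 5 libraries, against 47.2% of all genes and 74.9% of protein-coding genes. Their median was 190 CPM, 34 had at least 10 CPM and 26 at least 100 CPM, whereas the median of all protein-coding genes was 15.9 CPM. After POU5F1, the highest per kilobase were the cell-surface sialomucin PODXL, which carries the TRA-1-60 and TRA-1-81 epitopes, at 650 ± 29.9 CPM per kilobase, and the surface glycoprotein CD24 at 549 ± 8.06. PHC1, a Polycomb protein, followed at 384 ± 12.5, then DPPA4, and TERF1, which binds telomere repeats, at 250 ± 8.06. The summed level of the list ran from 15265 to 15765 CPM between libraries. No member of at least 10 CPM had a CV above 20%.

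**Figure D2:**
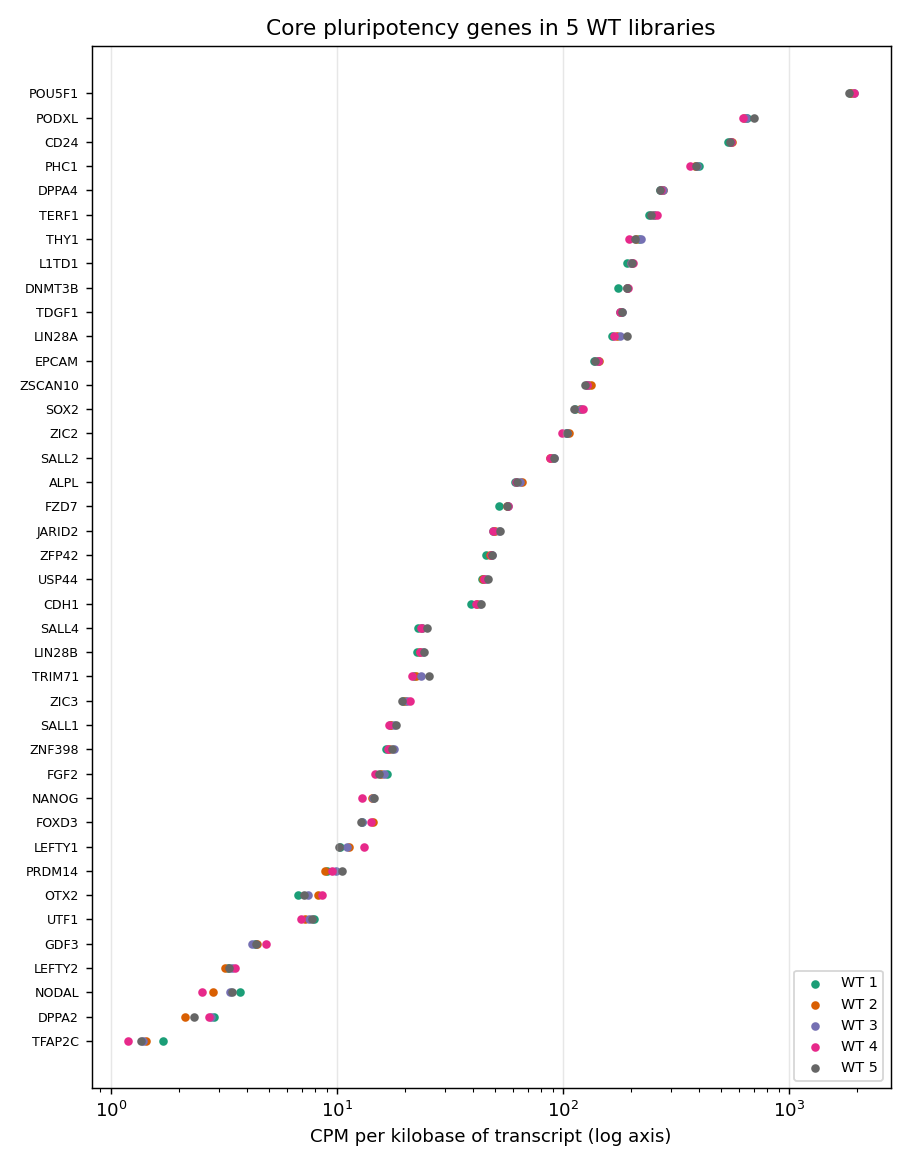
Level of each of the 40 core pluripotency genes in CPM per kilobase of transcript (x axis, log), with 1 point for each WT library coloured by library. The points of a gene mostly cover each other, and the genes span from 1.42 CPM per kilobase (TFAP2C) to 1885 (POU5F1).

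Among the transcription factors on the lists, POU5F1 was highest per kilobase by a wide margin. Next were ATF4, the stress-response factor, at 247 ± 5.26 CPM per kilobase, the zinc-finger pluripotency factor ZSCAN10 at 128 ± 3.07, and SOX2. ZIC2, SALL2 and ETV4 followed at 103 ± 2.58, 89.3 ± 1.94 and 81.4 ± 0.515 CPM per kilobase. XBP1, MYC, ZFP42, TCF7L1, ETS1, SOX3 and SALL4 were also among the 15 highest, from 54.5 CPM per kilobase (XBP1) down to 23.8 (SALL4). ETV4, an effector of FGF signalling, had a CV of 0.632% between libraries, which is below its counting error of 1.16%.

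All 18 genes typical of the primed state reached 1 CPM in every library, with a median of 224 CPM. The highest per kilobase were CD24, the secreted WNT antagonist SFRP2 at 291 ± 5.07 CPM per kilobase, the surface antigen THY1 at 210 ± 9.25, and the de novo DNA methyltransferase DNMT3B at 188 ± 8.09. DUSP6 and ZIC2 were next. VIM, an intermediate filament gene on this list, stood at 46.2 ± 0.910 CPM, near the lower end of it. The naive state is a condition closer to the preimplantation epiblast. Of 16 genes typical of it, 7 (43.75%) reached 1 CPM in all libraries, against 47.2% of all genes and 74.9% of protein-coding genes. None of the 16 reached 10 CPM. The highest per kilobase were GDF3 at 4.44 ± 0.241 CPM per kilobase, DPPA2 at 2.57, SUSD2 at 1.60, TFCP2L1 at 0.638, KLF4 at 0.565 and ESRRB at 0.525. The 9 that were under 1 CPM in at least 1 library included DPPA3, DPPA5, KLF2 and DNMT3L.

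On the list of lncRNAs linked to stem cells, 19 of 24 (79.2%) reached 1 CPM in all libraries. Of all genes annotated as lincRNA, antisense, processed transcript or sense intronic, 13.0%, 14.6%, 33.3% and 7.21% did. ESRG, which is transcribed from an endogenous retrovirus and is strongly expressed in human pluripotent cells, was at 426, 398, 382, 421 and 421 CPM in WT 1 to WT 5. WT 3 was lowest and WT 2 next. LINC00678 stood at 102 ± 6.99 CPM, the snoRNA hosts GAS5 and SNHG1 at 317 ± 14.8 and 211 ± 7.71 CPM, and SNHG14, which runs through the imprinted SNRPN region, at 971 ± 17.6 CPM. The 5 under 1 CPM were LINC-ROR, TERC, LINC00261, LINC02482 and MEG3.

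Over all annotated lncRNAs, the highest mean levels per kilobase after the miR-302/367 host were those of FP236383.3, FP236383.2 and FP671120.3. In WT 2 and WT 3 they stood above the host, at 455 and 402 against 348 and 320 CPM per kilobase. These 3 genes of the short arm of chromosome 21 had the same count in every library: 236 CPM in WT 1, 420 in WT 2, 371 in WT 3, 259 in WT 4 and 299 in WT 5. They were the only group of genes of at least 1 CPM with identical counts, and they cannot be told apart. LRRC75A-AS1, a snoRNA host, was next at 208 ± 4.89 CPM per kilobase.

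The counts of pathway and process genes that follow are to be read against the 74.9% of all protein-coding genes that reached 1 CPM in every library. FGF2, the growth factor of the medium, acts through receptors and the RAS and MAPK kinases. Of 39 genes of the pathway 36 reached 1 CPM in every library, and 35 had at least 10 CPM on average. Among the receptors FGFR1 was highest at 602 ± 9.54 CPM (102 ± 1.62 per kilobase), above FGFR4 at 37.3 ± 0.523, FGFR2 at 26.0 ± 0.387 and FGFR3 at 6.49 ± 0.365 CPM per kilobase, with no overlap between libraries. The heparan sulfate proteoglycan GPC4, a co-receptor, stood at 148 ± 2.82 CPM per kilobase. Genes that the pathway induces were high: the phosphatase DUSP6 at 152 ± 7.01 CPM per kilobase, the inhibitor SPRY4 at 91.7 ± 3.80 and ETV4. The kinase MAP2K2 completed the 6 highest at 79.3 CPM per kilobase. The cells also transcribed the ligand FGF2 itself, at 111, 105, 107, 97.7 and 102 CPM in WT 1 to WT 5. FGF4, FGF8 and the co-receptor KLB were under 1 CPM.

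For TGF-beta, activin and NODAL, 33 of 39 genes (84.6%) reached 1 CPM in every library. The co-receptor TDGF1 (CRIPTO), which NODAL needs for signalling, dominated the list at 180 ± 2.24 CPM per kilobase. Next came the SMAD corepressors SKI at 14.4 CPM per kilobase and SKIL at 12.5, with LTBP1, a binding protein of latent TGF-beta, at 13.6, SMAD5 at 11.8 and the activin receptor ACVR2B at 11.2. The type I receptors ACVR1B and TGFBR1 stood at 10.7 ± 0.282 and 8.06 ± 0.461 CPM per kilobase. The ligand NODAL was low, at 6.18, 4.71, 5.63, 4.21 and 5.70 CPM in WT 1 to WT 5. WT 2 and WT 4 were lowest for it. Its antagonist and target LEFTY1 was at 16.7, 18.3, 18.0, 21.4 and 16.6 CPM, with WT 4 highest. The 6 genes under 1 CPM in at least 1 library included CER1, TGFB3, INHBA and INHBB.

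All 29 genes of the insulin and IGF list with a row reached 1 CPM in every library. The receptor IGF1R was at 128 ± 10.2 CPM and INSR at 33.8 ± 2.05 CPM, or 10.5 ± 0.830 and 7.16 ± 0.434 CPM per kilobase. The highest per kilobase were the secreted binding proteins IGFBP2 at 255 ± 10.7 and IGFBP4 at 98.7, then RHEB, which activates mTORC1, at 68.2 and the mRNA-binding proteins IGF2BP3, IGF2BP1 and IGF2BP2 at 61.9, 51.3 and 46.7. The growth factor gene IGF2 was at 2.07 ± 0.259 CPM.

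Transferrin, selenium and ascorbate each meet a set of carriers and enzymes, and 29 of 31 such genes reached 1 CPM in every library. The ferritin chains FTL and FTH1, which store iron, were highest at 928 ± 22.9 and 758 ± 9.55 CPM per kilobase. The transferrin receptor TFRC stood at 195 ± 6.79 CPM, and the iron exporter SLC40A1 at a mean of 0.0563 CPM, below the limit of a single library. Selenium is built into selenoproteins, of which SELENOW had 238 ± 10.7 CPM per kilobase and GPX4, which protects membranes from lipid peroxidation, 193 ± 5.89. SELENOH followed at 160. SLC2A3, which carries glucose and oxidised ascorbate, was at 198 ± 6.31 CPM per kilobase. Of the ascorbate carriers, SLC23A2 stood at 31.3 ± 1.30 CPM and SLC23A1 at 0.0741 CPM.

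Receptors for the coated surface and the cells' own basement membrane genes were expressed as well, with 31 of 34 genes at 1 CPM or more in every library. The laminin-binding integrin subunits ITGB1 and ITGA6 stood at 131 ± 3.18 and 35.5 ± 0.925 CPM per kilobase. VCL, which links integrins to actin, had 123 ± 4.00, COL18A1 113 ± 2.73, the vitronectin receptor subunit ITGB5 93.0 ± 0.969, the tetraspanin CD9 70.8 and the kinase ILK 51.6 CPM per kilobase. The laminin chains LAMC1, LAMA5, LAMB1 and LAMA1 were between 20.4 and 30.8 CPM per kilobase. The matrix protein gene VTN was at 0.206 ± 0.0736 CPM and the integrin subunit ITGB3 was also under 1 CPM.

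WNT signalling is not supplied by the medium, and 26 of 32 genes of that pathway (81.2%) reached 1 CPM in all libraries, a share near the 74.9% of all protein-coding genes. The 2 secreted antagonists SFRP2 and SFRP1 were highest, at 291 ± 5.07 and 174 ± 4.66 CPM per kilobase, above CTNNB1 (beta-catenin) at 108 ± 2.91. FZD7 and FZD2, which are receptors, and the repressor TCF7L1 followed at 55.8, 51.0 and 47.1 CPM per kilobase. AXIN2, a common target of the pathway, stood at 16.9 ± 1.66 CPM. The 6 under 1 CPM were WNT3, WNT3A, WNT8A, WNT11, DKK1 and LEF1.

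All 23 glycolysis genes reached 1 CPM in every library, and 19 of them 100 CPM. GAPDH was highest at 1382 ± 44.8 CPM per kilobase, followed by LDHB at 888 ± 20.5, ENO1 at 675, ALDOA at 460, TPI1 at 456 and PGAM1 at 403. The lactate dehydrogenase subunits were unequal, with LDHB at 1334, 1353, 1352, 1416 and 1376 CPM in WT 1 to WT 5, and LDHA at 207, 229, 221, 230 and 217 CPM. Per kilobase LDHA stood at 91.4 ± 3.84, below LDHB in every library. In serine and one-carbon metabolism 14 of 16 genes reached 1 CPM, led by PHGDH, the first enzyme of serine synthesis, at 349 ± 14.8 CPM per kilobase. PSAT1 had 209, AHCY 202, SHMT2 163, MAT2A 135 and MTHFD1 92.3 CPM per kilobase. TDH and GNMT were under 1 CPM.

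Genes of DNA replication and division were all or nearly all present: 29 of 31 for G1/S and replication, and 26 of 26 for mitosis. The sliding clamp PCNA stood at 181 ± 7.35 CPM per kilobase, the helicase subunits MCM7 and MCM3 at 159 and 146, CDK4 at 86.1, MCM5 at 69.6 and MCM4 at 63.4. In mitosis the ubiquitin-conjugating enzyme UBE2C had 147 ± 3.17 CPM per kilobase, PTTG1 142, AURKB 121, CCNB1 117, CDC20 111 and TOP2A 91.2. The CDK inhibitors CDKN2A and CDKN2B, which restrain the G1/S step, were at 0.181 and 0.0441 CPM. In the cell death list 30 of 32 genes reached 1 CPM. BAX, the pore-forming effector of mitochondrial apoptosis, was highest at 222 ± 6.97 CPM per kilobase, followed by PMAIP1 (NOXA) at 83.6 and the survival factor MCL1 at 79.5. BIRC5 stood at 64.3 and CYCS at 59.5 CPM per kilobase, and BIK and BCL2A1 were under 1 CPM.

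Of 15 genes for DNA methylation and its removal, 14 reached 1 CPM in every library. TRIM28, the corepressor of retroelements, stood at 332 ± 12.1 CPM per kilobase and DNMT3B at 188 ± 8.09. DNMT1 had 47.4 ± 1.27, MBD3 43.1, TDG 18.4 and DNMT3A 16.3 ± 0.290 CPM per kilobase. DNMT3B was at 754, 830, 834, 838 and 827 CPM in WT 1 to WT 5, with WT 1 apart from the other 4. DNMT3L, the inactive cofactor of the de novo enzymes, was at a mean of 0.0304 CPM, below the limit of a single library. All 35 genes of the Polycomb and remodelling list reached 1 CPM. PHC1 was followed by RBBP7 at 147 ± 0.869, KDM1A at 130, SMARCA4 at 71.1, CHD4 at 67.7 and SMARCC1 at 59.6 CPM per kilobase.

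In the telomerase and shelterin list 13 of 14 genes reached 1 CPM in every library. The catalytic subunit TERT was at 30.2, 30.3, 30.3, 31.1 and 27.9 CPM in WT 1 to WT 5. WT 5 was lowest. TERF1 led the list, followed by the RNP proteins NHP2 at 187 ± 4.60, NOP10 at 165, DKC1 at 79.2 and GAR1 at 36.5 CPM per kilobase, and by the shelterin member ACD at 24.2. The telomerase RNA TERC, whose mature form ends without a long polyA tail, stood at 0.238 CPM. Of 18 imprinted genes with a row 15 reached 1 CPM in every library. SNRPN was highest at 456 ± 13.9 CPM per kilobase, then GNAS at 348 ± 11.4, MEST at 71.3, GRB10 at 29.7, PEG10 at 24.7 and NDN at 21.3. H19 was at 3.54 ± 0.476 CPM, and MEG3 and DLK1 were at 0.0361 and 0.443 CPM. Counts per gene do not show which allele was read.

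KCNH2 (ENSG00000055118, chr7:150944961-150978315, minus strand) encodes hERG1, the alpha subunit of the channel behind the rapid repolarising current of heart muscle, and it is the gene the series is about. Its level was 15.2 CPM in WT 1, 16.5 in WT 2, 15.03 in WT 3, 16.7 in WT 4 and 15.8 in WT 5. The libraries lay close together, with a CV of 4.62% against 4.12% from counting error alone. Per kilobase it stood at 3.70 ± 0.171 CPM (SD, n = 5), number 9403 of 17691 protein-coding genes and number 13 of 84 potassium channel genes. Of these 84 genes 42 (50%) reached 1 CPM in every library, below the 74.9% of all protein-coding genes, and 15 had at least 10 CPM on average.

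Among the potassium channel genes highest per kilobase, KCNG1, a modifier subunit that is silent by itself, stood at 20.03 ± 0.509 CPM per kilobase, and the leak channel KCNK5 at 14.95 ± 0.253. KCNS3, KCNK1 and KCNC4 followed at 11.0, 7.11 and 6.61 CPM per kilobase. Of the other channels of the ether-a-go-go family, KCNH6 was at 3.39 ± 0.361 CPM, KCNH1 at 0.0915 and KCNH5 at 0.240. KCNQ1, which carries the slow repolarising current of the heart, was at 5.28 ± 0.275 CPM, and its partner KCNE1 at 0.0254 CPM. The other 42 potassium channel genes were under 1 CPM in at least 1 library.

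Markers of other cell types were measured to see what else these cultures could hold. In bulk RNA, few cells with much of a transcript and many cells with little of it cannot be told apart. Over 12 lists 138 different genes had a row, and 58 of them (42.0%) reached 1 CPM in all libraries, against 47.2% of all genes and 74.9% of protein-coding genes. Their median was 0.566 CPM, and 29 had at least 10 CPM.

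**Figure D3:**
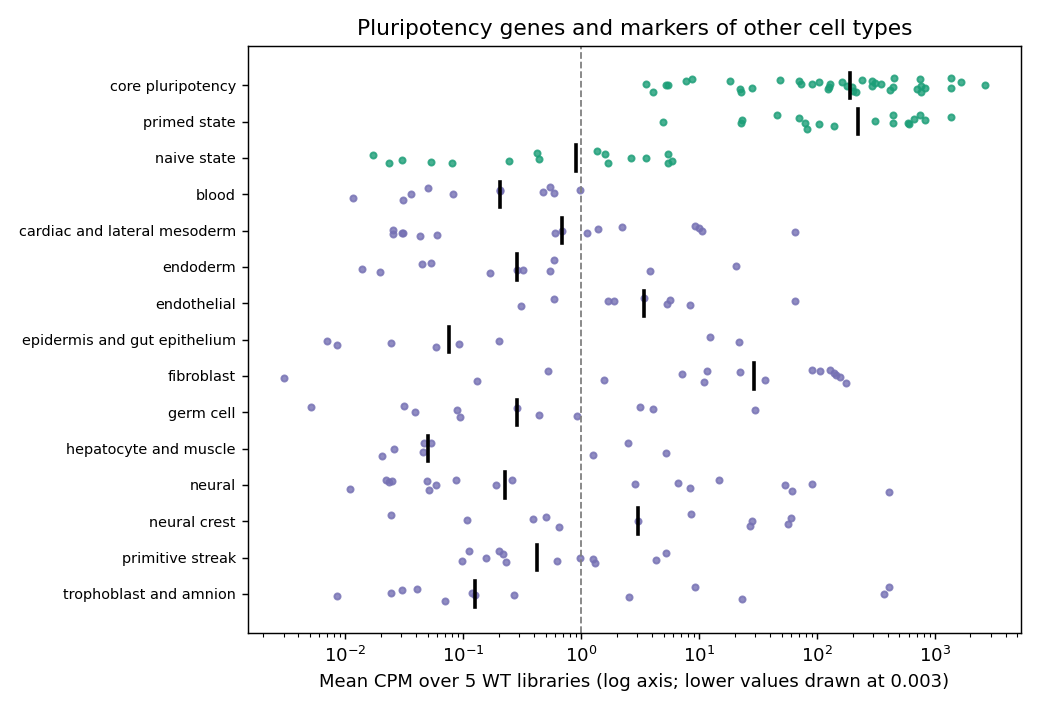
Mean level in CPM (x axis, log) of each gene of the pluripotency lists and of the marker lists of other cell types, with 1 point per gene over the 5 WT libraries and a bar at each list's median. The dashed line marks 1 CPM. All core and primed genes lie to its right, and the 11 blood genes to its left.

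None of 11 blood genes reached 1 CPM, and the pan-leukocyte gene PTPRC was at 0.0115 CPM. Of 11 endoderm genes 2 did, FOXA3 at 20.6 ± 1.11 CPM and FOXA2 at 2.41, 4.31, 3.47, 5.24 and 3.63 CPM in WT 1 to WT 5. FOXA2 was lowest in WT 1 and highest in WT 4. The defining endoderm factors GATA4 and GATA6 had means of 0.0449 and 0.0197 CPM, below the limit of a single library. In primitive streak, 3 of 12 reached 1 CPM, of which NODAL was highest, and TBXT and EOMES, which define that stage, stood at 0.219 and 0.112 CPM.

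Of 15 cardiac and lateral mesoderm genes 7 reached 1 CPM. KDR, the VEGF receptor, was at 65.6 ± 1.92 CPM, the sarcomere genes ACTC1 and TNNT2 at 10.6 and 9.95 CPM, and the calcium release channel RYR2 at 9.33 CPM. The cardiac factors NKX2-5, TBX5 and TBX20 were at 0.0429, 0.0600 and 0.0255 CPM. KDR also stood out among endothelial markers, where 7 of 9 (77.8%) reached 1 CPM, a share near the 74.9% of all protein-coding genes. TEK, APLNR and TIE1 were at 8.33, 5.63 and 5.33 CPM, while CDH5 and PECAM1, which define endothelium, were at 0.586 and 0.309 CPM.

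Of 18 neural genes 8 reached 1 CPM. The intermediate filament gene NES stood at 407 ± 8.20 CPM, the tubulin TUBB3 at 89.9 ± 5.69 and SOX3, a close relative of SOX2, at 53.8 ± 2.22. SIX6, an eye-field homeobox gene, was at 58.5, 66.3, 62.5, 60.5 and 60.4 CPM in WT 1 to WT 5, with WT 2 highest. MAP2, DCX and GAP43 were at 14.9, 8.46 and 6.67 CPM. The early neural factors PAX6 and SOX1 had means of 0.0221 and 0.0518 CPM, below the limit of a single library. SIX3, another eye-field gene, was at 0.260 CPM. In neural crest, 6 of 11 reached 1 CPM, with ETS1 at 60.4, B3GAT1 at 57.2, FOXD3 at 28.0, NGFR at 27.1 and SOX9 at 8.50 CPM. FOXD3 is also on the core pluripotency list. TFAP2A, which defines early crest, was at 0.0243 CPM.

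In trophoblast and amnion, 5 of 13 genes reached 1 CPM, of which the simple-epithelium keratins KRT8 and KRT18 stood at 405 ± 11.6 and 367 ± 11.5 CPM. GABRP, a receptor subunit typical of amnion, was at 26.9, 22.8, 24.3, 20.2 and 22.0 CPM in WT 1 to WT 5. WT 1 was highest and WT 4 lowest. KRT7 was at 9.23 CPM, and the trophoblast factors GATA2, GATA3 and CDX2 at 0.119, 0.125 and 0.0697 CPM. Of 11 germ cell genes 3 reached 1 CPM, and the receptor gene KIT was at 29.8 ± 0.874 CPM. In the short lists for epidermis and gut and for liver and muscle, KRT10, VIL1 and ACTA1 stood at 21.9, 12.5 and 5.26 CPM.

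The fibroblast list was the marker list with the largest share present, 13 of 16 genes (81.2%). That share is near the 74.9% of all protein-coding genes. The highest per kilobase were TAGLN, an actin-binding protein of smooth muscle, at 71.9 ± 4.83 CPM per kilobase, COL6A2 at 42.2, COL6A1 at 41.8, COL1A2 at 25.7, FN1 at 16.2 and COL1A1 at 15.6. TAGLN was at 172, 149, 152, 146 and 159 CPM in WT 1 to WT 5, with WT 1 highest. COL5A2, COL5A1, PDGFRB, COL6A3, FBN1 and S100A4 were between 7.18 and 90.6 CPM. COL3A1, which fibroblasts usually express together with COL1A1, had no count in any of the 5 libraries, and POSTN and TWIST1 were at 0.523 and 0.131 CPM. Over the 5 libraries the summed level of the list ran from 1023 to 1040 CPM.

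The spread between libraries was small for most genes. For genes of at least 10 CPM the median CV was 3.79%, against 2.54% from counting error alone. It was 4.10% between 10 and 100 CPM and 2.86% between 100 and 1000 CPM, where counting error alone gives 2.89% and 1.28%. Between any pair of libraries the median absolute difference of protein-coding genes was between 0.0505 and 0.0779 on the log2 CPM scale. The smallest differences were between WT 2 and WT 3.

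The most even protein-coding gene was ANXA5, which encodes a phospholipid-binding annexin, at 237, 236, 238, 238 and 236 CPM in WT 1 to WT 5. Its CV of 0.318% was below its counting error of 1.06%. GMDS, PC, IBTK, RTN4, GPN2, CAPZB, RBBP7, QRSL1 and CASD1 came next, with CVs from 0.332% to 0.632%, each below its own counting error. They were taken as the lowest of 10108 protein-coding genes, so their low values are a result of the choice.

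A CV above 20% was found in 164 of 10582 genes (1.55%). Of these, 141 were processed pseudogenes, 13 protein-coding genes and 10 other genes. WT 2 and WT 3 were the lowest pair of libraries in 154 of the 164 and the highest pair in 5. Without these libraries 18 genes had a CV above 20%. The 10 others included the 3 genes with identical counts on chromosome 21, where WT 2 and WT 3 were highest.

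**Figure D4:**
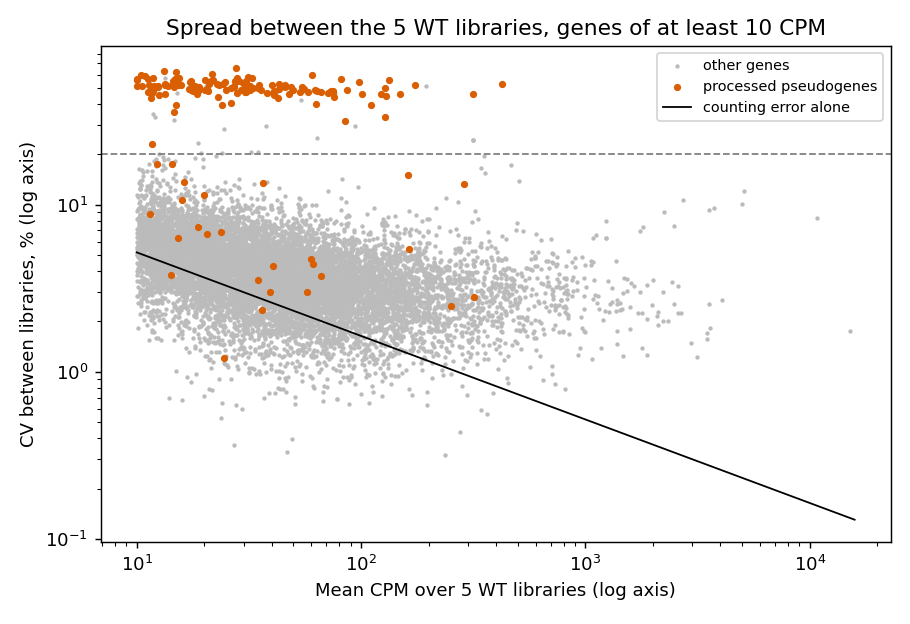
CV between the 5 WT libraries in percent (y axis, log) against mean CPM (x axis, log) for genes of at least 10 CPM, with processed pseudogenes as large points and the counting error at the mean depth as a line. Most pseudogenes form a band near 49%, above the dashed line at 20%, while other genes lie mostly below 10%.

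Of 167 processed pseudogenes of at least 10 CPM, 141 (84.4%) had a CV above 20%. Their median CV was 48.8% over the 5 libraries and 7.44% over WT 1, WT 4 and WT 5. The number of processed pseudogenes with at least 1 CPM was 775 in WT 1, 571 in WT 2, 465 in WT 3, 838 in WT 4 and 763 in WT 5. WT 3 was lowest on both measures.

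The parent genes did not share this spread. In 77 families, each a parent gene with the processed pseudogenes named after it and a pseudogene sum of at least 10 CPM, the median CV was 47.5% for the pseudogene sum, 2.69% for the parent and 3.05% for both together. The pseudogene sum was lowest in WT 2 and WT 3 in 73 families. For EEF1A1, the 24 pseudogenes summed to 1502 CPM in WT 1, 666 in WT 2, 426 in WT 3, 1700 in WT 4 and 1485 in WT 5, while EEF1A1 itself stayed between 14926 and 15583 CPM and was highest in WT 3. For GAPDH, 27 pseudogenes summed to 71.4, 32.4, 19.04, 91.3 and 71.3 CPM. The 4 families that did not follow were those of GTF2I, CENPBD1, TDGF1 and MSL3. The 4 pseudogenes of TDGF1 summed to 35.3, 37.5, 36.9, 36.6 and 35.6 CPM, with a CV of 2.53%.

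**Figure D5:**
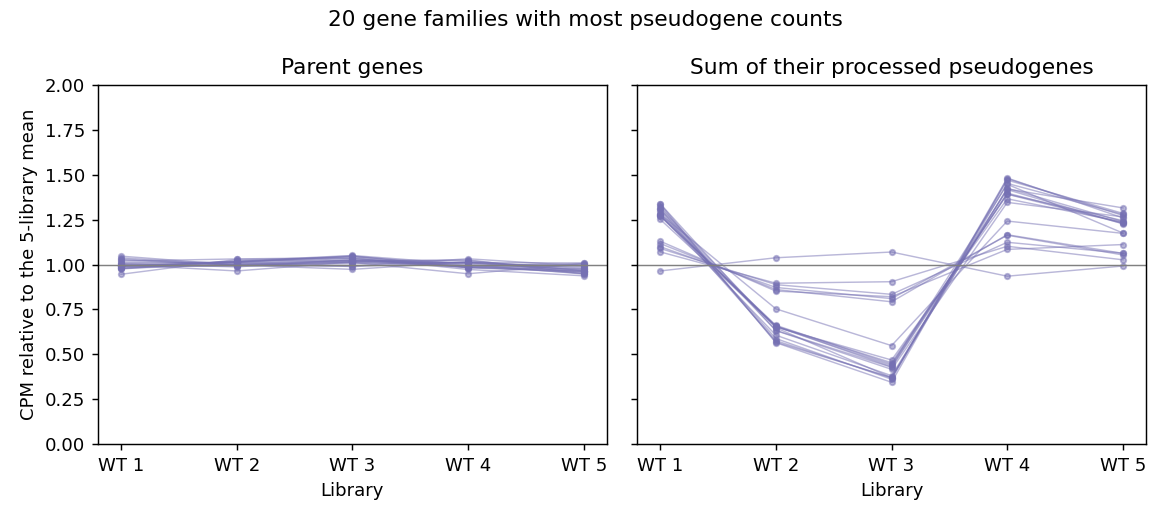
CPM relative to the mean of the 5 WT libraries (y axis) by library (x axis) for the 20 families with most pseudogene counts, with 1 line per family. Parent genes (left) stay near 1 in every library, while most pseudogene sums (right) dip in WT 2 and WT 3.

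The protein-coding genes with the largest CV were mostly near-identical copies as well. MTRNR2L8 and MTRNR2L12, nuclear copies of part of the mitochondrial 16S rRNA gene, had CVs of 57.4% and 51.3%. MTRNR2L8 was at 19.8, 6.66, 3.58, 19.5 and 17.3 CPM in WT 1 to WT 5, and MTRNR2L12 at 299, 114, 65.5, 243 and 255 CPM. Both were low in WT 2 and lowest in WT 3.

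The retrogene PGAM4 was at 26.9, 11.2, 7.32, 30.8 and 26.1 CPM, while PGAM1, from which it is copied, had a CV of 3.23%. SETSIP, a copy of SET, was at 17.8, 9.40, 5.93, 22.0 and 20.4 CPM. UQCRHL, a copy of the respiratory chain gene UQCRH, was at 45.8, 30.1, 21.8, 46.0 and 44.7 CPM. These 3 copies followed the same order of libraries, with WT 3 lowest and WT 2 next.

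HSPA4L, a chaperone gene related to HSPA4, was at 68.6, 36.1, 23.8, 76.9 and 65.8 CPM, with the same libraries low. FAM156B was at 8.33, 17.8, 13.2, 12.1 and 7.48 CPM, and the read-through gene MSANTD3-TMEFF1 at 14.8, 7.82, 13.6, 20.9 and 16.7 CPM. Neither followed that order, and FAM156B was highest in WT 2 and WT 3. MSANTD3-TMEFF1 overlaps MSANTD3 and TMEFF1 on the same strand, whose CVs were 5.35% and 5.27%. The rest of the 15 with the largest CV were MT-ATP8, MAGED4, BCAS4, APLN, NPIPB12, EIF3CL and AC073896.1, from 29.4% down to 19.2%.

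EIF3C and EIF3CL, duplicates on chromosome 16 that encode a subunit of initiation factor eIF3, differed in opposite ways. EIF3C was at 370, 525, 571, 433 and 433 CPM in WT 1 to WT 5, and EIF3CL at 401, 300, 257, 395 and 410 CPM. Their sum was at 771, 826, 829, 828 and 843 CPM, with a CV of 3.40% against 17.3% and 19.7% for the copies. WT 2 and WT 3 were highest for EIF3C and lowest for EIF3CL. The sources used here do not give how reads with several matches were assigned in each library, and the part of that in these differences was not tested.

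APLN, the secreted ligand of the apelin receptor, was at 41.4, 28.4, 34.9, 23.8 and 32.9 CPM in WT 1 to WT 5. WT 1 was highest and WT 4 lowest, and WT 2 and WT 3 were not a pair, unlike in PGAM4, SETSIP and UQCRHL. Its CV of 20.7% compares with 2.88% from counting error alone.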

How the data were processed

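Per the labels' protocols, polyA RNA of WT H9 cells went through 150 paired-end cycles of NovaSeq-6000 sequencing. The authors deposited whole-number counts per gene without normalization. Named in the submitters' processing notes are the build hg38, R 3.6.3 and DESeq2. The names of the aligner and counting tool, the strand setting and how multiply matching reads were handled were not given in the sources used here.

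The 5 WT columns were matched to samples by their library names. CPM is the count divided by the column total, times 1e+06. Positions, gene types and lengths come from GENCODE 29 (GRCh38, the assembly of hg38), which had an entry for 31146 of 32152 genes. The length is that of 1 transcript per gene, the one with the best APPRIS tag and then the longest. The spread is the CV of CPM over libraries, set beside the CV that the mean count gives by counting error. No groups were compared, and the only test is Dixon's limit for a library far from the rest. The principal components are those of log2 CPM with 0.1 added. The spread computation was tested on simulated counts.

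Gene lists (34, with 716 genes that have a row) and the members described were chosen with earlier results of these data known. Named by rule are the 5 markers, KCNH2, the 15 genes with most counts, the 15 nuclear protein-coding genes and 5 lncRNAs highest per kilobase, the 15 list transcription factors highest per kilobase, the 6 members of each list highest per kilobase, up to 4 names of each list's genes under 1 CPM, every other cell type's marker of at least 5 CPM, and the 15 protein-coding genes with the largest and 10 with the smallest CV. Some genes that this rule names are not reported here. Further members, such as FGF2, TERT, LDHA, VIM, TFRC, INSR, TGFBR1 and the defining markers at or near 0, were named for their known roles after values had been seen. The sums of parent genes with their pseudogenes, and of pairs of copies, were also chosen after seeing the data. Scaling alternatives used edgeR 4.0.16 and DESeq2 1.42.0 in R 4.3.3, and other values Python 3.11.15 with pandas 2.3.3 and numpy 2.4.6.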

Additional observations from a re-analysis of the deposited data

Results flagged for a closer look

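A library far from the other 4 was looked for in 309 values of the 5 WT libraries, namely the levels of the 302 named genes and 7 shares and totals. A value was taken up when its gap to the nearest library was over 0.71 of the whole range (Dixon's 95% limit for 5 samples). This was the case for 7 of them, or 2.27%, where chance gives about 1 in 20. Among all 10582 genes of at least 10 CPM it was 4.86%.

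WT 1 was the lowest library in 3 of the 7. The de novo methyltransferase DNMT3B was at 754 CPM there and between 827 and 838 in the others, the WNT receptor FZD7 at 201 against 218 to 220, and the pluripotency factor ZFP42 at 121 against 126 to 128. WT 1 also had the highest mitochondrial share, and the part of that in these values was not tested.

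NANOG was lowest in WT 4, at 67.2 CPM against 74.1 to 75.6 in the others. TERT was lowest in WT 5, at 27.9 CPM against 30.2 to 31.1. COL18A1 was highest in WT 2, at 696 CPM against 655 to 664. SIX3 was highest in WT 5, at 0.489 CPM against 0.169 to 0.228.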

How the results depend on the processing

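Each count and share was recomputed without each library, with other scalings, filters and lengths, and, as a choice made after seeing the data, without WT 2 and WT 3. With 1 CPM in every library kept as the threshold, the number of genes lay between 15177 and 15595, with 58 or 59 of the other cell type markers among them. It was 16525 genes and 63 markers at a threshold of 0.5 CPM, and 15883 genes and 59 markers where the mean had to reach 1 CPM. All 40 core pluripotency genes were at or above each of these thresholds, and POU5F1 ranked between 14 and 21. Leaving out 1 library gave a median CV of 3.47% to 3.94%, and 157 to 188 genes with a CV above 20%. The share of the 100 most counted genes was 17.0% when mitochondrial genes were left out of the total, and the ribosomal protein share was 8.24% there and 8.24% with ribosomal protein pseudogenes added. With no filter on low counts the median CV was 19.2% and 15510 genes had a CV above 20%. That number was 1113 with a filter of 1 CPM, 13 over protein-coding genes only and 18 without WT 2 and WT 3. With edgeR's common dispersion the CV beyond counting error was 10.2% over all 5 libraries and 4.53% without WT 2 and WT 3. It is called biological in edgeR, but here it may be technical. Between 1 and 10 CPM, 949 of 5301 genes had a CV above 20%, and 277 of these were protein coding. The median counting error in that band was 9.04%. The part of few counts in the larger number under the 1 CPM filter was not tested. Depth limits statements on genes under about 0.1 CPM, where 3 counts or fewer were seen in a library. No paired analysis was possible because a single group was described, with no second group to pair it with.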

Other observations

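Immediate early genes respond within minutes to handling or serum. A list of 17 genes held such genes and also the inducible chaperone genes HSPA1A and HSPA1B. Of the 17, 14 (82.4%) reached 1 CPM in all 5 WT libraries, a share near the 74.9% of all protein-coding genes. IER2 was highest per kilobase at 100 CPM per kilobase, followed by the inducible chaperone HSPA1B at 54.2, MYC at 51.0, IER3 at 47.2, HSPA1A at 28.1 and the nuclear receptor NR4A1 at 14.2. HSPA1A and HSPA1B are near-identical copies and cannot be fully told apart. FOS, the best-known gene of this group, was at 2.59, 3.61, 3.94, 3.68 and 3.77 CPM in WT 1 to WT 5, lowest in WT 1. EGR2, EGR3 and FOSB were under 1 CPM.

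All 14 genes of a list of stress and ATF4 genes reached 1 CPM in every library. ATF4 was highest per kilobase at 247 CPM per kilobase, then the endoplasmic reticulum chaperone HSPA5 at 162, the amino acid enzyme ASNS at 103, XBP1 at 54.5, DDIT4 at 34.1 and CHAC1 at 25.1. A pair of members further down this list had the same order of libraries, WT 1 highest and WT 4 lowest: the cell cycle inhibitor CDKN1A at 20.05, 15.7, 18.1, 13.0 and 17.8 CPM, and the secreted stress factor GDF15 at 11.0, 7.52, 9.65, 5.86 and 7.76 CPM in WT 1 to WT 5. APLN and GABRP were also highest in WT 1 and lowest in WT 4. These genes were set together after their values had been seen.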
